A study of Homo sapiens with 9 samples.

Results

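HNRNPA3 and 9 related genes of heterogeneous nuclear ribonucleoproteins (hnRNPs) were followed in A549 cells after silencing of the DNA polymerase gene REV1. The 10 genes, out of 18143 in the deposited tables, were taken by symbol: HNRNPA0, HNRNPA1, HNRNPA2B1 and HNRNPA3 of the A type, HNRNPAB, HNRNPD and HNRNPDL, which are close to the A type, and HNRNPC, HNRNPK and HNRNPU as more distant members. HNRNPA3 was selected on its measured FPKM in these same libraries, low with SiREV1#1 and not with SiREV1#2, so its own values are given as a description without a test. The other genes were chosen by their names and their kinship with it, with earlier results of these data known. A549 is a human lung adenocarcinoma cell line. RNA was sequenced 48 h after transfection with a scramble siRNA (the control) or with SiREV1#1 or SiREV1#2, which are different siRNAs against REV1 mRNA. Each group had 3 libraries, all from this cell line, and the labels do not say that they came from separate cultures, so the p-values measure only the spread between these samples, which may be technical.

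hnRNPs coat nascent RNA in the nucleus and take part in splicing, export, transport, translation and decay of mRNA. Those of the A/B type bind RNA through paired RNA recognition motifs followed by a glycine-rich tail. HNRNPA1 and HNRNPA2B1 are abundant splicing regulators that often block the use of an exon, HNRNPA3 is a less abundant relative that also binds mRNA carried into the cytoplasm, and HNRNPA0 binds AU-rich elements that govern mRNA stability. Because the A-type proteins bind similar RNA, a fall in one member raises the question of whether the others fall with it or rise in its place, and the comparisons below were arranged around that question.

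The seed, bases 2 to 8 of a siRNA guide strand, can pair with mRNAs other than the intended target. Matches to it were searched in the 10 genes as a description. The match to the seed of SiREV1#1 was the word CAGGAAT, that to SiREV1#2 was GGACGAC and that to the scramble siRNA was TGTCACG, and only the strand of the mRNA was searched. In the protein-coding transcript with the longest annotated 3′ UTR of each gene, CAGGAAT stood in the 3′ UTR of 4 of the 10 genes, against 15.6% of 13842 genes. HNRNPA3 held it at 2 places, and HNRNPA0, HNRNPA2B1 and HNRNPC at 1 place each. The 3′ UTRs of these 4 genes had 2201 to 7498 bases. The background was not matched for length, so no enrichment can be read from these shares. GGACGAC stood in the 3′ UTR of 1 of the 10 genes, HNRNPDL, against 1.31% of all genes. TGTCACG was in none of these 3′ UTRs, against 3.08% of all genes. The windows of these 3′ UTR matches are shown because HNRNPA3 and HNRNPDL were the members with the lowest levels relative to scramble, in the first case with SiREV1#1 and in the second with SiREV1#2. The capitals mark the matched word and the positions are those of GRCh38 (GENCODE release 29).
HNRNPA3, SiREV1#1 word, nearer the stop codon, chr2:177219732-177219760, plus strand: ggtagtggtacCAGGAATaaaaaattaag
HNRNPA3, SiREV1#1 word, farther, chr2:177222584-177222612, plus strand: gatcccaagtcCAGGAATttgagacgagc
HNRNPA0, SiREV1#1 word, chr5:137751893-137751921, minus strand: gatgggcttcaCAGGAATgtagttgccag
HNRNPA2B1, SiREV1#1 word, chr7:26190578-26190606, minus strand: tattgcctttaCAGGAATgtgatactcag
HNRNPC, SiREV1#1 word, chr14:21210551-21210579, minus strand: ccttattaaacCAGGAATttggagaaaaa
HNRNPDL, SiREV1#2 word, chr4:82424837-82424865, minus strand: cccatcttgcaGGACGACattgaagattg

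Beyond the seed word, no shared stretch was searched for, and a match is a description and not evidence of binding. The farther match of HNRNPA3 was present in the transcript HNRNPA3-202 of 5688 bases, while HNRNPA3-201 of 2067 bases and HNRNPA3-204 of 1731 bases held 1 match each. Outside the 3′ UTRs, CAGGAAT was found in the coding sequence of HNRNPK and in the 5′ UTRs of HNRNPDL and HNRNPC, and GGACGAC in the coding sequence of HNRNPU. REV1, the intended target, held CAGGAAT at 2 places and GGACGAC at 1 place in its coding sequence.

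Total estimated counts per library were between 13059082 (SiREV1#1 replicate 1) and 20166451. Replicate 1 stood apart from replicates 2 and 3 in every group: the chi-square per gene between libraries of a group, near 1 for counting noise alone, was between 203 and 302 for pairs with replicate 1, 6.08 between scramble replicates 2 and 3, and 2.47 between SiREV1#1 replicates 2 and 3. The count column for SiREV1#2 replicate 3 repeated that of replicate 2, so counts cover 8 libraries and FPKM, the authors' measure of fragments scaled to transcript length and library depth, covers 9. The epithelial keratins KRT8 and KRT18 were at 1372 to 5602 and at 2491 to 5216 FPKM, whereas EPCAM did not pass 2.38 FPKM. CDH1 (E-cadherin) was at 17.3 to 42.4 FPKM in scramble, 30.8 to 43.8 with SiREV1#1 and 6.32 to 33.0 with SiREV1#2, and with the replicate block it was higher with SiREV1#1 than with SiREV1#2 (log2 difference 1.43 ± 0.35, adjusted p = 0.03). Its part in the results was not tested. The leukocyte, endothelial and fibroblast markers PTPRC, PECAM1, COL1A1 and DCN did not pass 1.57 FPKM in any library. Results were therefore given for same-numbered replicates, and tests were run without and with the replicate number as a block.

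REV1 was first examined as a check of the labels. Its level was 7.23, 7.90 and 8.44 FPKM in scramble replicates 1 to 3, 2.60, 2.92 and 3.36 with SiREV1#1, and 3.62, 3.36 and 3.18 with SiREV1#2. All 6 silenced libraries lay below all 3 scramble libraries. By edgeR's quasi-likelihood test on counts, the log2 fold change was -1.26 ± 0.17 (SE) with SiREV1#1 (adjusted p = 0.042) and -1.33 ± 0.20 with SiREV1#2 (adjusted p = 0.15, and 0.0099 with the replicate block). Without the block the call with SiREV1#1 ended when any 1 of the 8 libraries was left out (adjusted p = 0.067 to 0.38), and it passed with the block (adjusted p = 0.0016).

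HNRNPA3 (chr2:177212563-177223958, plus strand) was at 108, 98.8 and 109 FPKM in the scramble libraries, at 21.0, 19.6 and 22.7 FPKM with SiREV1#1, and at 93.8, 102 and 105 FPKM with SiREV1#2. With SiREV1#1 every library lay far below the scramble range, and with SiREV1#2 the libraries overlapped it. The mean with SiREV1#1 was 20.0% of the scramble mean and that with SiREV1#2 was 95.3%. Within same-numbered replicates the log2 ratio of FPKM + 1 was -2.31, -2.27 and -2.22 for SiREV1#1, a spread of 0.05 (SD, n = 3), and -0.20, 0.05 and -0.05 for SiREV1#2. On counts, the log2 fold change was -2.41 (95% interval -2.77 to -2.05) with SiREV1#1 and -0.08 (-0.47 to 0.31) with SiREV1#2. Since the gene was selected on these libraries, these intervals describe their spread and are no test. Replicate 1 lay between the other libraries of its group in scramble and with SiREV1#1, and was the lowest with SiREV1#2. In bulk RNA, a lower level per cell and a lower number of cells with the transcript cannot be told apart.

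**Figure D1:**
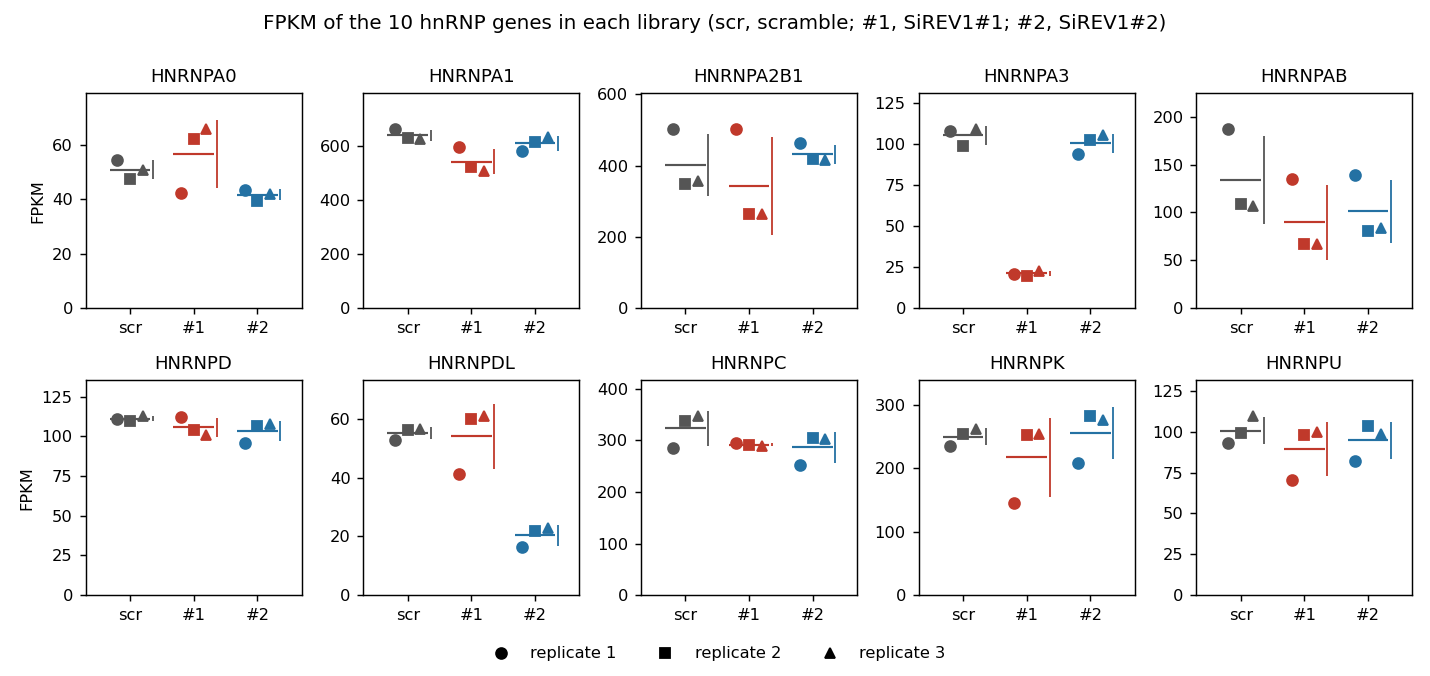
FPKM of each of the 10 hnRNP genes (vertical axes from 0, a scale per gene) in the scramble (scr), SiREV1#1 (#1) and SiREV1#2 (#2) libraries, with circles, squares and triangles for replicates 1, 2 and 3, horizontal lines for group means and vertical lines for ± 1 SD (n = 3). HNRNPA3 is at 19.6 to 22.7 FPKM with SiREV1#1 only, HNRNPDL is at 16.3 to 22.7 FPKM with SiREV1#2 only, and in HNRNPA2B1 and HNRNPAB the circles lie above the other symbols in every group.

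The order of the 10 genes by FPKM, which is scaled to transcript length, gives the scale of the difference. In scramble cells HNRNPA1 was highest at 641 ± 20.1 FPKM (mean ± SD, n = 3), followed by HNRNPA2B1 at 402 ± 87.3, HNRNPC at 323 ± 33.9 and HNRNPK at 250 ± 14.0. HNRNPAB (134 ± 45.9), HNRNPD (111 ± 1.52), HNRNPA3 (105 ± 5.69) and HNRNPU (101 ± 8.30) formed a middle group, and HNRNPDL (55.1 ± 2.07) and HNRNPA0 (50.9 ± 3.45) were lowest. The ranges of the 3 libraries overlapped between HNRNPA2B1 and HNRNPC, between HNRNPAB and HNRNPD, between HNRNPA3 and HNRNPU and between HNRNPDL and HNRNPA0, so these neighbours were not separated. With SiREV1#1, HNRNPA3 moved from place 7 to place 10, below the range of HNRNPDL. With SiREV1#2 it kept place 7, and HNRNPDL moved from place 9 to place 10.

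None of the A-type relatives passed the test in either direction with SiREV1#1, without or with the block. HNRNPA1 was at 664, 632 and 627 FPKM in scramble and at 597, 523 and 510 FPKM with SiREV1#1. The groups did not overlap, and the level was lower in 3 of 3 same-numbered replicates, with log2 ratios of -0.15, -0.27 and -0.30. The edgeR log2 fold change was -0.16 ± 0.17 (95% interval -0.55 to 0.23, adjusted p = 0.92), which did not pass. With the block the interval was -0.49 to 0.15 (adjusted p = 0.48), and in replicates 2 and 3 alone the value was -0.27 ± 0.06 (adjusted p = 0.0016). An increase of more than 0.23 lay outside all 3 intervals. The fit of replicates 2 and 3 alone called 46.5% of all genes with SiREV1#1. Its p-values, here and below, measure only the small spread between these replicates, which may be technical.

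HNRNPA2B1 was at 502, 347 and 356 FPKM in scramble and at 501, 263 and 263 FPKM with SiREV1#1. Replicate 1 of each group was the high library, and the SiREV1#1 value there equalled that of scramble (log2 ratio -0.00), while replicates 2 and 3 were lower by -0.40 and -0.43. The edgeR log2 fold change was -0.17 ± 0.33 (interval -0.93 to 0.59, adjusted p = 0.99). With the block it was -0.23 ± 0.17 (interval -0.62 to 0.17, adjusted p = 0.43), and in replicates 2 and 3 alone -0.39 ± 0.06 (adjusted p = 0.00011). Without the block its sign turned when single libraries were left out (range -0.60 to 0.03).

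HNRNPA0, a gene with 1 exon and the longest 3′ UTR of the 10 in the annotation, 7498 bases, was at 54.5, 47.6 and 50.7 FPKM in scramble and at 42.5, 62.0 and 65.9 FPKM with SiREV1#1. Replicates 2 and 3 were higher than scramble, by log2 ratios of 0.38 and 0.37, and replicate 1 was lower, by -0.35. The edgeR log2 fold change was 0.22 ± 0.18 (interval -0.20 to 0.65, adjusted p = 0.85). In replicates 2 and 3 alone, where the spread was small and 46.5% of all genes were called, it was 0.40 ± 0.06 (adjusted p = 0.00024). Over this gene's alternatives the adjusted p ranged from 0.00024 to 1. HNRNPA0, HNRNPA2B1 and HNRNPC held the SiREV1#1 word in the 3′ UTR as HNRNPA3 did, and none of them passed the test without or with the block. In replicates 2 and 3 alone HNRNPA2B1 and HNRNPC were called lower and HNRNPA0 higher. Whether the word bears on the level of any of these genes, HNRNPA3 included, was not tested.

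**Figure D2:**
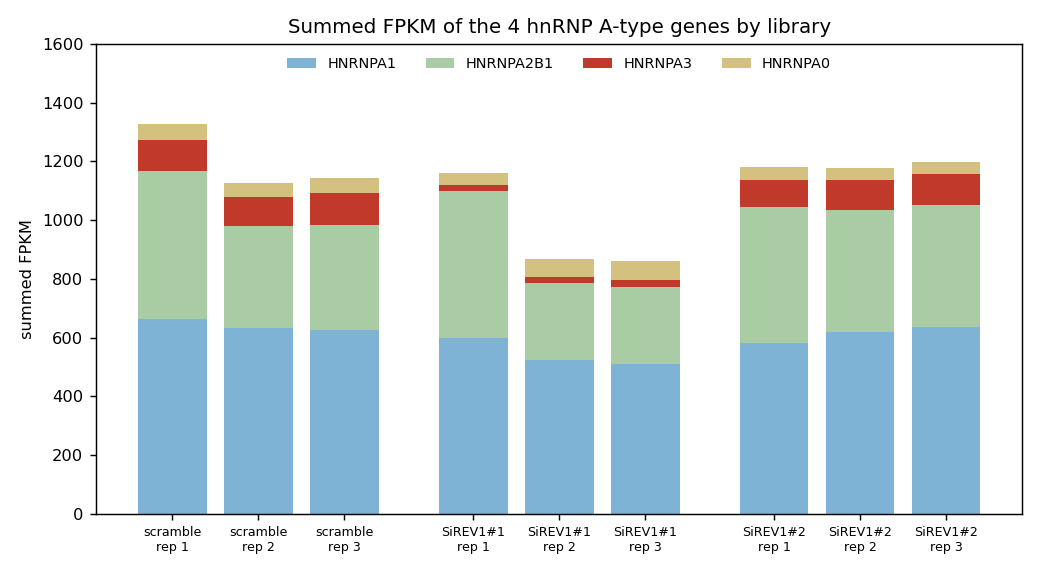
Summed FPKM (vertical axis, from 0) of HNRNPA1, HNRNPA2B1, HNRNPA3 and HNRNPA0 in each of the 9 libraries, 1 bar per library. The HNRNPA3 segment takes 8.14 to 9.55% of the bar in scramble and 1.80 to 2.63% with SiREV1#1, and the whole bar is lower with SiREV1#1 than in the scramble library of the same number for all 3 replicates.

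The summed level of HNRNPA0, HNRNPA1 and HNRNPA2B1 was used to ask whether small increases added up. It was 1221, 1026 and 1033 FPKM in scramble, 1141, 849 and 839 FPKM with SiREV1#1, and 1087, 1074 and 1093 FPKM with SiREV1#2. With SiREV1#1 the sum was lower in 3 of 3 same-numbered replicates (log2 ratios -0.10, -0.27 and -0.30), and the groups overlapped because replicate 1 was high. On average HNRNPA3 was lower by 84.2 FPKM with SiREV1#1, while the other A-type genes together differed from scramble by -150.5 FPKM (-8.53 FPKM with SiREV1#2). The FPKM of all genes was also shifted with SiREV1#1, with a median log2 fold change of -0.068, against 0.001 with SiREV1#2. The sums were not corrected for this. The share of HNRNPA3 in the sum of all 4 genes was 8.14, 8.78 and 9.55% in scramble and 1.80, 2.26 and 2.63% with SiREV1#1. HNRNPA1 and HNRNPA2B1 carry most of this sum, and no test was made of it.

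HNRNPAB, whose protein has the same paired RNA recognition motifs, was the related gene with a lower level in every same-numbered replicate of both siRNAs. It was at 187, 109 and 107 FPKM in scramble, at 135, 67.3 and 66.7 FPKM with SiREV1#1 and at 139, 80.2 and 83.6 FPKM with SiREV1#2. The groups overlapped because replicate 1 was high in each, but within same-numbered replicates the level was lower in 3 of 3, with log2 ratios of -0.47, -0.69 and -0.67 for SiREV1#1 and -0.42, -0.44 and -0.35 for SiREV1#2. Without the block edgeR gave -0.47 ± 0.42 (adjusted p = 0.88) and -0.25 ± 0.47 (adjusted p = 1). With the block the fall with SiREV1#1 passed, at -0.54 ± 0.14 (interval -0.85 to -0.22, adjusted p = 0.041), as 12.3% of all genes did. The fall with SiREV1#2 did not pass, at -0.43 ± 0.16 (adjusted p = 0.22). The difference between the siRNAs did not pass either (-0.11 ± 0.16 with the block, interval -0.47 to 0.26, adjusted p = 0.68). With limma on FPKM and the block both falls passed, at adjusted p = 0.0059 and 0.042, where 19.7% and 11.3% of all genes passed. The median log2 fold change of all genes in that fit was -0.068 with SiREV1#1 and 0.001 with SiREV1#2. Over the alternatives the adjusted p ranged from 2.4e-06 to 1 for SiREV1#1. For SiREV1#2 the value in replicates 2 and 3 alone was -0.42, from a single SiREV1#2 count library.

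HNRNPD and HNRNPDL are near relatives that lie close together on the minus strand of chromosome 4 (HNRNPD at chr4:82352498-82374503), and HNRNPD (AUF1) binds AU-rich elements of unstable mRNAs. HNRNPD was at 111, 110 and 113 FPKM in scramble, 112, 104 and 101 FPKM with SiREV1#1 and 95.9, 107 and 108 FPKM with SiREV1#2. It lay below the scramble range with SiREV1#2, by log2 ratios of only -0.20, -0.04 and -0.07, and the test did not pass (-0.10 ± 0.18, interval -0.52 to 0.32, adjusted p = 1). With SiREV1#1 its fold change was 0.01 (interval -0.37 to 0.38), and its sign differed between alternatives.

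HNRNPDL, a less studied relative of HNRNPD (chr4:82422564-82430408, minus strand), was low with the other siRNA. It was at 52.8, 56.1 and 56.5 FPKM in scramble, at 41.1, 60.0 and 60.9 FPKM with SiREV1#1, and at 16.3, 22.0 and 22.7 FPKM with SiREV1#2. All SiREV1#2 libraries lay below all others, and the mean was 36.9% of the scramble mean, against 97.9% with SiREV1#1. The log2 ratios within same-numbered replicates were -1.63, -1.32 and -1.28 for SiREV1#2 and -0.35, 0.09 and 0.11 for SiREV1#1. Against scramble, the edgeR log2 fold change with SiREV1#2 was -1.50 ± 0.22 (interval -2.02 to -0.98), which missed the threshold without the block (adjusted p = 0.15) and passed it with the block (-1.47 ± 0.15, adjusted p = 0.0092). Without the block its value ranged from -1.70 to -1.32 with single libraries left out, and none of these fits passed. Its sign did not turn in any of the alternatives. In the direct comparison of the siRNAs HNRNPDL was higher with SiREV1#1 than with SiREV1#2 by 1.53 ± 0.22 (adjusted p = 0.038, and 0.0017 with the block), higher in 3 of 3 same-numbered replicates. Without the block this call ended when any 1 library other than SiREV1#1 replicate 1 was left out (7 of 8 fits), while the value stayed between 1.35 and 1.74 (adjusted p = 0.034 to 0.22).

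**Figure D3:**
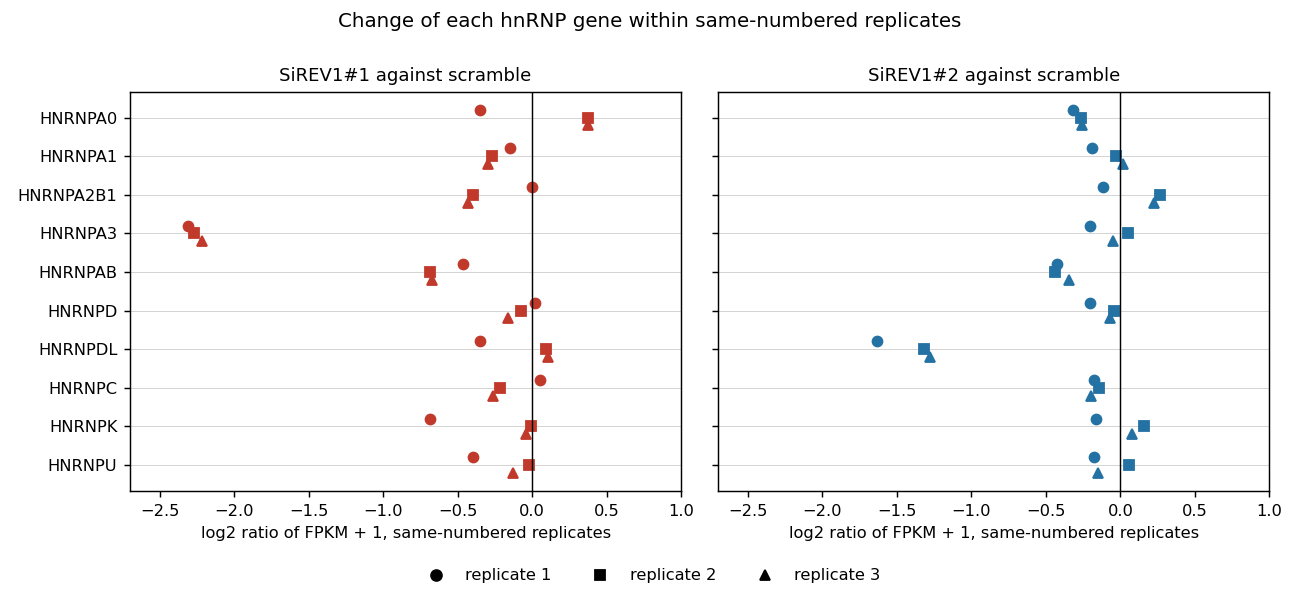
Log2 ratio of FPKM + 1 (horizontal axis) of each gene against the scramble library of the same number, for SiREV1#1 on the left and SiREV1#2 on the right, with circles, squares and triangles for replicates 1, 2 and 3. HNRNPA3 lies between -2.31 and -2.22 on the left, HNRNPDL between -1.63 and -1.28 on the right, HNRNPAB is left of 0 in all 6 comparisons, and HNRNPA0 is right of 0 with SiREV1#1 in replicates 2 and 3 only.

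None of the more distant members passed the test against scramble without or with the block. HNRNPC, which binds uridine tracts and forms tetramers of the hnRNP core particle, was at 284, 338 and 347 FPKM in scramble, 295, 291 and 289 FPKM with SiREV1#1 and 252, 305 and 303 FPKM with SiREV1#2. Its log2 ratios were 0.05, -0.22 and -0.26 for SiREV1#1 and -0.18, -0.15 and -0.20 for SiREV1#2, and the edgeR intervals were -0.46 to 0.33 and -0.63 to 0.26. In replicates 2 and 3 alone the value with SiREV1#1 was -0.22 ± 0.06 (adjusted p = 0.0071).

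HNRNPK, a KH-domain protein that binds C-rich RNA, was at 235, 254 and 262 FPKM in scramble, at 145, 252 and 254 FPKM with SiREV1#1 and at 209, 282 and 277 FPKM with SiREV1#2. The low value was replicate 1 of SiREV1#1, the library with the lowest total count, where the log2 ratio was -0.69 against -0.01 and -0.04 in the others. The edgeR intervals were -0.67 to 0.38 and -0.58 to 0.59.

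HNRNPU, which attaches RNA to the nuclear scaffold, was at 93.1, 99.3 and 110 FPKM in scramble, at 70.4, 97.8 and 100.1 FPKM with SiREV1#1 and at 82.2, 104 and 98.4 FPKM with SiREV1#2. Here too replicate 1 of SiREV1#1 was the low library, and the edgeR intervals were -0.52 to 0.32 and -0.56 to 0.38. Neither HNRNPK nor HNRNPU passed the test in any of the alternatives.

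Counted over the 9 related genes with SiREV1#1, 1 (HNRNPA1) lay wholly below scramble, or 11.1%, against 13.8% of 11432 genes with a mean FPKM of at least 1, and 0 lay wholly above it (6.35%). The level was lower in all 3 same-numbered replicates for 5 of 9, or 55.6%, against 35.5% of those genes, and higher in all 3 for 0 of 9, against 19.6%. The median of their mean log2 ratios was -0.18, beside a median of -0.07 for all genes on the same scale. By edgeR 0 of the 9 passed without the block (42 of 14205 genes passed, 0.296%), and 1, HNRNPAB, passed with the block (1744 genes, 12.3%). Without the block, all 9 had an unadjusted p above 0.05. DESeq2, an alternative count test, called 532 genes (2.95%) and none of the 9. In replicates 2 and 3 alone, where 46.5% of genes were called, 5 of the 9 were, with HNRNPA1, HNRNPA2B1, HNRNPAB and HNRNPC lower and HNRNPA0 higher.

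With SiREV1#2, 3 of 9 (HNRNPA0, HNRNPD and HNRNPDL) lay wholly below scramble, or 33.3%, against 9.52% of all genes, and 0 wholly above (6.61%). The level was lower in all 3 same-numbered replicates for 5 of 9, against 29.7%, and higher in all 3 for 0 of 9, against 25.9%. HNRNPA0 was at 43.6, 39.4 and 42.1 FPKM against 47.6 to 54.5 in scramble, with log2 ratios of -0.32, -0.27 and -0.26, but its edgeR fold change of -0.26 ± 0.21 did not pass (interval -0.74 to 0.22, adjusted p = 1). Without the block 0 of 14205 genes passed in this comparison (0%), 778 had an unadjusted p under 0.05 and DESeq2 called 196 (1.09%), 1 of them HNRNPDL. With the block 271 passed (1.91%), 1 of them HNRNPDL. In replicates 2 and 3 alone 38.4% of genes were called and 4 of the 9, with HNRNPA0, HNRNPAB and HNRNPDL lower and HNRNPA2B1 higher. The siRNA comparisons share the scramble libraries, so the values with SiREV1#1 and SiREV1#2 are not independent of each other.

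Between the siRNAs directly, 96 genes (0.676%) passed without the block and 2503 (17.6%) with it, and HNRNPDL was the only one of the 9 related genes in either. DESeq2 called 844 (4.68%), with the same gene as the only one of the 9. In replicates 2 and 3 alone 54.4% of genes were called and 5 of the 9, with HNRNPA0 and HNRNPDL higher with SiREV1#1 and HNRNPA1, HNRNPA2B1 and HNRNPAB lower. On the FPKM scale 1 of 9 (HNRNPDL) lay wholly higher with SiREV1#1 (9.88% of all genes did) and 0 wholly lower (14.1%). In all 3 same-numbered replicates 2 of 9 (HNRNPAB and HNRNPK) were lower (35.6% of all genes) and 1 higher (24.1%). HNRNPA0 was higher with SiREV1#1 by 0.49 ± 0.21 (interval 0.00 to 0.97), which did not pass after adjustment (adjusted p = 0.40), and the same-numbered replicates gave -0.04, 0.64 and 0.63.

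**Figure D4:**
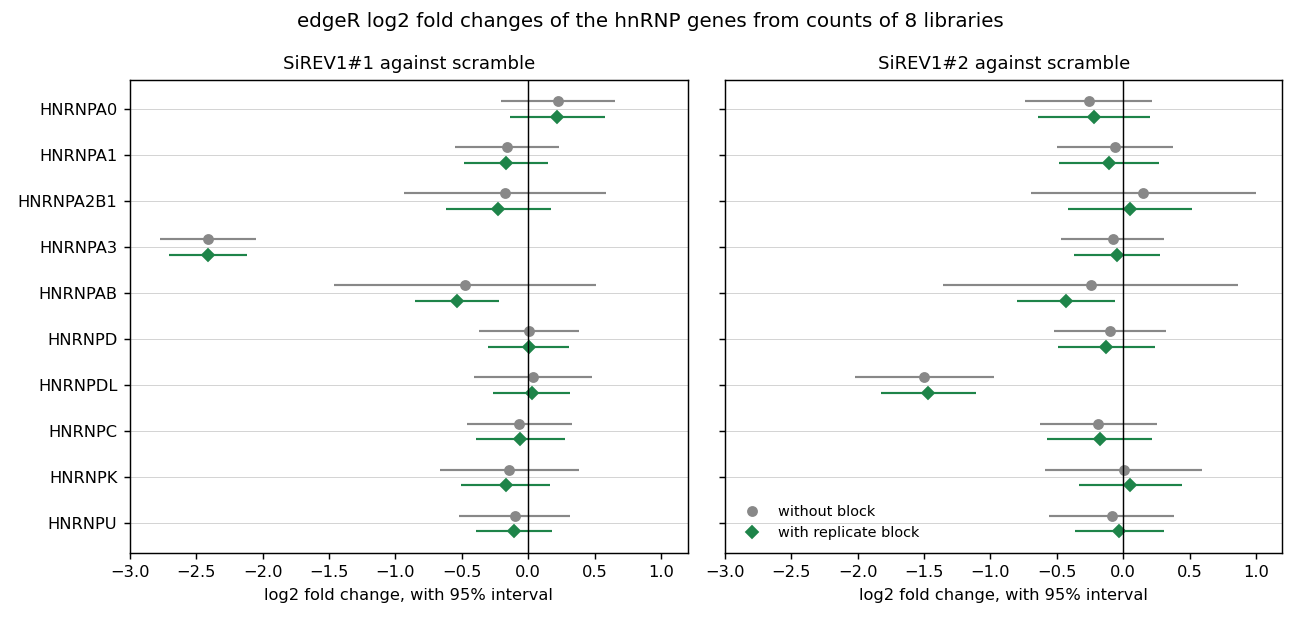
edgeR log2 fold change against scramble with its 95% interval (horizontal axis) for the 10 genes, from counts of 8 libraries, without the replicate block (grey circles) and with it (green diamonds), for SiREV1#1 on the left and SiREV1#2 on the right. HNRNPA3, selected for its low level with SiREV1#1, is shown as a description, at -2.41 on the left in both fits. The intervals of HNRNPDL on the right lie wholly below 0 in both fits, and those of HNRNPAB do so only with the block.

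Other RNA-binding proteins were examined as lists, to see whether the pattern reached beyond these genes. Among 17 further hnRNP genes, 0 passed without the block in either comparison against scramble, and with it 2 passed with SiREV1#1 (12.3% of all genes did) and 1 with SiREV1#2 (1.91%). Without the block the list median was -0.16 with SiREV1#1 and -0.00 with SiREV1#2, beside 0.00 and 0.02 for all genes tested. With the block PCBP2, a poly(C)-binding protein related to HNRNPK, fell with SiREV1#1 by 0.75 on the log2 scale (SE 0.12, adjusted p = 0.009), from 183 to 212 FPKM in scramble to 98.5 to 122 FPKM. HNRNPR, a relative of SYNCRIP, fell with SiREV1#1 by 0.77 (SE 0.19, adjusted p = 0.039). RALY, a relative of HNRNPC, fell with SiREV1#2 by 1.25 (SE 0.14, adjusted p = 0.0092), from 108 to 128 FPKM in scramble to 44.8 to 54.1 FPKM. Its level was 103 to 132 FPKM with SiREV1#1. The fourth gene named by the rule, PCBP1, did not pass in either comparison (0.22 ± 0.20 and 0.33 ± 0.22).

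Of 8 RNA-binding proteins with motifs like those of the A/B type, 0 passed without the block against scramble, and with it 3 passed with SiREV1#1 (12.3% of all genes) and 1 with SiREV1#2 (1.91%). With the block TARDBP (TDP-43, a splicing regulator with paired RNA recognition motifs) fell with SiREV1#1 by 0.92 (SE 0.14, adjusted p = 0.0065), to 24.0 to 27.5 FPKM from 49.2 to 51.9. MSI2, a Musashi translational regulator, rose with SiREV1#1 by 0.60 (SE 0.14, adjusted p = 0.028) and fell with SiREV1#2 by 0.87 (SE 0.16, adjusted p = 0.044). HNRNPA1L2, a copy of HNRNPA1 whose reads may not be separable from it, was at 2.98 to 8.33 FPKM and also fell with SiREV1#1, by 0.62 (SE 0.15, adjusted p = 0.037). RBM3 (-0.57 ± 0.20 and 0.13 ± 0.22 without the block) and DAZAP1 (0.07 ± 0.16 and -0.46 ± 0.18) did not pass against scramble without or with the block. RBM3 was lower with SiREV1#1, and DAZAP1 with SiREV1#2, in all 3 same-numbered replicates, while RBM3 was higher in all 3 with SiREV1#2. Both falls passed with limma and the block (adjusted p = 0.027 and 0.016), where 19.7% and 11.3% of all genes passed.

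Of 14 SR proteins, the splicing activators that often oppose hnRNP A1, 12 were lower with SiREV1#1 in all 3 same-numbered replicates (35.5% of all genes were) and 0 were higher (19.6%). None passed without the block, and with it 3 of the 14 passed, beside 12.3% of all genes. SRSF9 fell by 0.84 (SE 0.17, adjusted p = 0.018), SRSF6 by 0.51 (SE 0.12, adjusted p = 0.028) and SRSF1 by 0.47 (SE 0.13, adjusted p = 0.048). With SiREV1#2, 4 of the 14 were lower in all 3 (29.7% of all genes) and 1 was higher (25.9%). None passed in either fit, beside 0% of all genes without the block and 1.91% with it, and SRSF8 was at -0.54 ± 0.22 without the block. The list median was -0.27 with SiREV1#1 and -0.05 with SiREV1#2.

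Among 11 factors that import or modify hnRNPs or SR proteins, 0 passed without the block, where 0.296% of all genes passed with SiREV1#1 and 0% with SiREV1#2. SRPK2, a kinase of SR proteins, was the 1 that passed against scramble with the block, for SiREV1#2 (-0.76 ± 0.15, adjusted p = 0.049). With the block 12.3% of all genes passed with SiREV1#1 and 1.91% with SiREV1#2. Without the block TNPO1, the import receptor of HNRNPA1 and its relatives, was at 0.32 ± 0.22 and 0.63 ± 0.24 and PRMT5 at -0.38 ± 0.15 and -0.05 ± 0.17. Of 10 factors of nonsense-mediated decay, 0 passed in either fit, beside the same shares of all genes, with UPF1 at -0.42 ± 0.17 for SiREV1#1. Of 11 factors of m6A, an RNA modification that HNRNPA2B1 and HNRNPC have been linked to, VIRMA passed for SiREV1#1 (-0.52 ± 0.14, adjusted p = 0.046) and YTHDF1 for SiREV1#2 (-1.32 ± 0.15, adjusted p = 0.0092) with the block, 1 of 11 in each case beside 12.3% and 1.91% of all genes.

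The genes most like HNRNPA3 over the 9 libraries were found by Pearson's r of log2(FPKM + 1) among 11431 genes as a description. The libraries fall into 3 groups, so genes that change with the same siRNA all have a high r. They were RARS (arginyl-tRNA synthetase, r = 0.998), MCU (the mitochondrial calcium uniporter, 0.997), GTF2F2 (a subunit of the transcription factor TFIIF, 0.997), DESI2 (0.995) and C1orf112 (0.992). RARS was at 64.95 to 66.55 FPKM in scramble, 30.7 to 32.6 FPKM with SiREV1#1 and 60.1 to 63.1 FPKM with SiREV1#2. MCU was at 19.6 to 22.2 FPKM in scramble, 4.10 to 4.61 FPKM with SiREV1#1 and 18.0 to 20.1 FPKM with SiREV1#2. At the other end were CEBPD (-0.989), at 59.2 to 63.4, 108 to 132 and 57.4 to 64.2 FPKM, then IDNK (-0.983) and PRSS16 (-0.975). Of the related genes HNRNPA1 was nearest to HNRNPA3 with r = 0.806, at rank 645, and HNRNPA0 was farthest with r = -0.511.

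The same measure was taken for HNRNPDL after its values had been seen. The most similar genes were ARL6IP4 (r = 0.997), CAP1 (0.992), RALY (0.990), PPIL1 (0.990) and YTHDF1 (0.987). RALY and YTHDF1 were also on the lists above, and ARL6IP4 was at 64.7 to 76.5 FPKM in scramble, 52.1 to 74.6 FPKM with SiREV1#1 and 20.1 to 29.4 FPKM with SiREV1#2. RALY held neither GGACGAC nor CAGGAAT in its 3′ UTR or coding sequence, which says only that these letters are absent from the transcript searched.

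The transcript length implied by dividing counts by FPKM was also followed, which moves when the estimated mixture of transcripts of a gene moves. FPKM is part of this ratio and HNRNPA3 was selected on it, so for this gene the length is a description and not an independent readout. For HNRNPA3 it was 4715 ± 68 bases in scramble (4636 to 4758, n = 3), 4209 ± 371 bases with SiREV1#1 (3799 to 4522, n = 3) and 4609 and 4788 bases with SiREV1#2. The SiREV1#1 libraries lay below all others, at a mean of 89.3% of scramble, outside the middle 95% of 10324 genes (93.7 to 106.6%). The other 9 genes were at 97.8 to 100.2% with SiREV1#1, with HNRNPA2B1 at the low end, and HNRNPDL with SiREV1#2 was at 100.0%. REV1 itself was at 105.1% with SiREV1#1 and 87.5% with SiREV1#2. The lower counts of HNRNPA3 make this length less precise with SiREV1#1 (1040 to 1913 estimated reads per library, against 9383 to 10129 in scramble), and whether that accounts for the shift was not tested.

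hnRNP genes have many processed copies in the genome, and reads that fit several copies limit how well a gene can be counted. Of the words of 50 bases in HNRNPA3 transcripts, 16.5% also occurred in transcripts of 19 other genes, most often the pseudogene HNRNPA3P6. The share was 22.8% for HNRNPA1, 8.49% for HNRNPK, 5.92% for HNRNPC and 1.25% for HNRNPAB, and below that for the others. HNRNPA3 shared none of these words with the other 9 genes, and HNRNPD and HNRNPDL shared 7. How the authors assigned reads that fit several copies is not given in the sources used here, so this limit bears most on HNRNPA1 and HNRNPA3.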

How the data were processed

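The authors deposited 2 values for each of 18143 genes in every library, an estimated count that was not normalized (expected counts) and FPKM. The submitters' processing notes name StringTie 1.3.3b and hg38, and the aligner and strandedness are not given in the sources used here. The repeated count column of SiREV1#2 replicate 3 was used once (8 libraries). After rounding, the 14205 genes that passed filterByExpr were fitted in edgeR 4.0.16 (R 4.3.3) with TMM scaling, all 3 groups together, and each contrast was taken from the quasi-likelihood F test (Benjamini-Hochberg adjusted p under 0.05). SE was obtained from the fold change and F. FPKM ratios used a pseudocount of 1. Alternatives were a replicate block, DESeq2 1.42.0, upper-quartile scaling, no filter, limma 3.58.1 on log2(FPKM + 1) or log2(FPKM + 0.1), limma with the block, replicates 2 and 3 only, and leaving out each library. SiREV1#2 was a single count library in the fit of replicates 2 and 3 only and in the fits that left out a SiREV1#2 library. The fits were tried on simulated counts with planted changes. The spread set there was smaller than the spread estimated in these data, so error rates on these libraries were not measured.

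Same-numbered libraries of different groups deviated together (r of 0.734 to 0.929 over 9 comparisons, 11432 genes), which meets the rule set for pairing. Replicates 2 and 3 were alike across numbers too, so the block mainly takes up the shift of replicate 1. With it the estimated spread between libraries (biological coefficient of variation) was 0.161, against 0.412 without.

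The members and gene lists were chosen with earlier results of these data known. Named genes are the 10 members, REV1, per list up to 4 genes with the smallest p against scramble, genes that passed with the block, and the 5 most and 3 least correlated with HNRNPA3. The likeness to HNRNPDL was added after seeing the data. Seed words came from the siRNA sequences the study gives, and were searched in the protein-coding GENCODE release 29 transcript with the longest 3′ UTR of each gene. The background was taken over the 97.5% of tested genes that have an annotated protein-coding transcript. A gene without an annotated 3′ UTR counted as lacking the word there. The planned comparison of protein sequences was not run, as no protein table was used here.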

Additional observations from a re-analysis of the deposited data

Results flagged for a closer look

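Of 14205 genes, 96 (0.676%) differed between SiREV1#1 and SiREV1#2 in the direct edgeR comparison of counts without the block. They included 1 of the 9 related genes, 1 of 17 further hnRNP genes and 1 of 8 similar RNA-binding proteins, and none from the other lists. With scramble replicate 2 or SiREV1#1 replicate 2 or 3 left out, 0 genes passed in this comparison. The calls below therefore depended on single libraries. HNRNPDL was higher with SiREV1#1 by 1.53 on the log2 scale (SE 0.22, adjusted p = 0.038), higher in 3 of 3 same-numbered replicates. RALY, from the list of further hnRNP genes, was higher by 1.34 (SE 0.19, adjusted p = 0.035), with FPKM of 103 to 132 against 44.8 to 54.1. MSI2, from the list of similar RNA-binding proteins, was higher by 1.45 (SE 0.19, adjusted p = 0.028), with FPKM of 23.5 to 30.5 against 8.92 to 15.8. HNRNPA3 had been chosen for such a difference and is left out here. Groups of 3 libraries were too small for a search for single outlying libraries.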

How the results depend on the processing

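The number of genes that passed differed between the settings, and the numbers for SiREV1#1, SiREV1#2 and their direct comparison are given in this order (42, 0 and 96 as reported). They were 1744, 271 and 2503 with the replicate block, 532, 196 and 844 with DESeq2, 156, 66 and 595 with limma on log2(FPKM + 1), 170, 76 and 605 on log2(FPKM + 0.1), 2251, 1291 and 4169 with limma and the replicate block, and 6597, 5450 and 7712 in replicates 2 and 3 only. Leaving out single libraries gave 0 to 35, 0 and 0 to 93. The count fell to 0 for SiREV1#1 without scramble replicate 2 or 3 or SiREV1#1 replicate 2 or 3, and for the direct comparison without scramble replicate 2, SiREV1#1 replicate 2 or 3 or SiREV1#2 replicate 2, while upper-quartile scaling and no filter stayed within 1.5 times.

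Of the calls for the related genes and REV1, the block changed HNRNPAB with SiREV1#1, HNRNPDL with SiREV1#2 and REV1 with SiREV1#2, and no other. The call of REV1 with SiREV1#1 ended without any 1 library (log2 fold change -1.335 to -1.203, adjusted p = 0.067 to 0.38) and without the filter (-1.27, adjusted p = 0.074), where that of HNRNPDL between the siRNAs also ended (1.53, adjusted p = 0.053). Signs turned only in values that had not passed. HNRNPD with SiREV1#1 became -0.001 without the filter, -0.073 and -0.074 with limma at pseudocounts of 1 and 0.1, -0.073 with limma and the block and -0.098 in replicates 2 and 3 (-0.099 to 0.079 without single libraries). HNRNPDL with SiREV1#1 became -0.051 and -0.052 with limma at these pseudocounts and -0.051 with limma and the block (-0.023 to 0.148). Between the siRNAs, replicates 2 and 3 alone gave -0.043 for HNRNPD and -0.053 for HNRNPC, and limma gave -0.151 and -0.194 for REV1 at these pseudocounts and -0.151 with the block. With single libraries left out, the other values whose sign turned were, against scramble, HNRNPA2B1 (-0.6 to 0.032) and HNRNPK (-0.237 to 0.035) with SiREV1#1, and HNRNPAB (-0.719 to 0.112), HNRNPK (-0.208 to 0.189) and HNRNPU (-0.241 to 0.055) with SiREV1#2. Between the siRNAs they were HNRNPAB (-0.74 to 0.242), HNRNPD (-0.001 to 0.165), HNRNPC (-0.002 to 0.25), HNRNPK (-0.335 to 0.07), HNRNPU (-0.162 to 0.142) and REV1 (-0.016 to 0.115). The cause was not tested for any of these. With words of 100 bases the share found in other genes was 11% for HNRNPA3 and 17.5% for HNRNPA1, as longer words match less often. Repeating the search with bases 2 to 7 of the guide gave 6 genes for SiREV1#1 (40.4% of all genes held that word in the 3′ UTR) and 1 for SiREV1#2 (4.32%).

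The counts cover 8 libraries with a lowest total of 13059082, and with 2 or 3 libraries a group, differences inside the printed intervals could not be told from the spread between replicates. In the fit of replicates 2 and 3 alone SiREV1#2 had no replicate.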
